A study of Oryzias latipes with 6 samples.

Results

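Cluster 6 is the group of nuclei in the medaka brain whose leading genes are those of myelin, the membrane sheath that glia wrap around axons. Its members are the nuclei behind the authors' deposited table for cluster 6. The arithmetic of that table gave 393 nuclei of 7512 over all 14 clusters, or 5.23% (95% exact binomial interval 4.74 to 5.76). The nuclei came from whole, frozen brains of adult male Japanese medaka (Oryzias latipes) of the F1 generation, aged 6 months, each made into its own droplet-based 3′ single-nucleus library. The control lineage comprised 3 fish whose parents had been held in solvent. The BaP lineage comprised 3 fish whose parents had been held in water with benzo[a]pyrene (BaP) at 1 µg/L over 21 days. BaP is a polycyclic aromatic hydrocarbon that combustion releases. The F1 fish of both lineages were not exposed themselves, so the comparison asks whether parental exposure goes with a different expression state in the brains of offspring.

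Myelin insulates axons and speeds conduction, and its compact layers are held together by a small set of abundant membrane proteins. In mammals the central sheath is made by oligodendrocytes and relies on proteolipid protein, whereas P0 (mpz) belongs to the Schwann cells of peripheral nerves. In fish, P0 is also a major protein of central myelin. The sheath is rich in galactolipids and cholesterol, and oligodendrocytes mature under the transcription factors Sox10 and Myrf.

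Of the 393 nuclei, 123 were of the control lineage, 5.06% (4.23 to 6.01) of the 2429 nuclei of that lineage. The other 270 were of the BaP lineage, 5.31% (4.71 to 5.96) of 5083. The 2 intervals overlap and cover counting error only, and the share in each fish is not known. Mean depth was 965 UMIs per nucleus (unique molecular identifiers, each standing for 1 captured RNA molecule), with 945 in the control lineage and 976 in the BaP lineage. The table lists 24365 genes, of which 14529 lay above the floor that undetected genes share. It has no column for a single fish or a single barcode, so no value below has an error across fish and shared barcodes could not be counted. Its p-values appear to come from a test over nuclei, which are not replicates of a lineage; no source used here states the unit of that test. They do not say how far the 3 fish of a lineage differ from each other. Levels below are mean CPM (UMI counts scaled to a common total) worked out for each lineage, and their intervals are 95% Poisson intervals of the counts.

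The levels of the cluster went with the label, which rests on some of the same genes. Oligodendrocyte genes were far more abundant in cluster 6 than in the other 13 clusters. A list of 32 oligodendrocyte symbols matched 25 genes of the table. Of its 21 detected members, 17 stood at 2 times or more the mean of the other clusters. The summed level of the list was 18197 CPM in cluster 6 against 374 to 1987 CPM elsewhere, the highest of these in cluster 12. The same number of members, 17, was found from control-lineage nuclei alone. The list holds the 6 label markers, which gave 9037 CPM of its sum in cluster 6. Its members olig1, enpp6, cldn11a and cldn11b were not detected in cluster 6, where tspan11 stood at 0.219 times. In another cluster olig1 reached 558 CPM. Levels within a cluster were used by the clustering, so these values describe the cluster and are not a test.

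**Figure D1:**
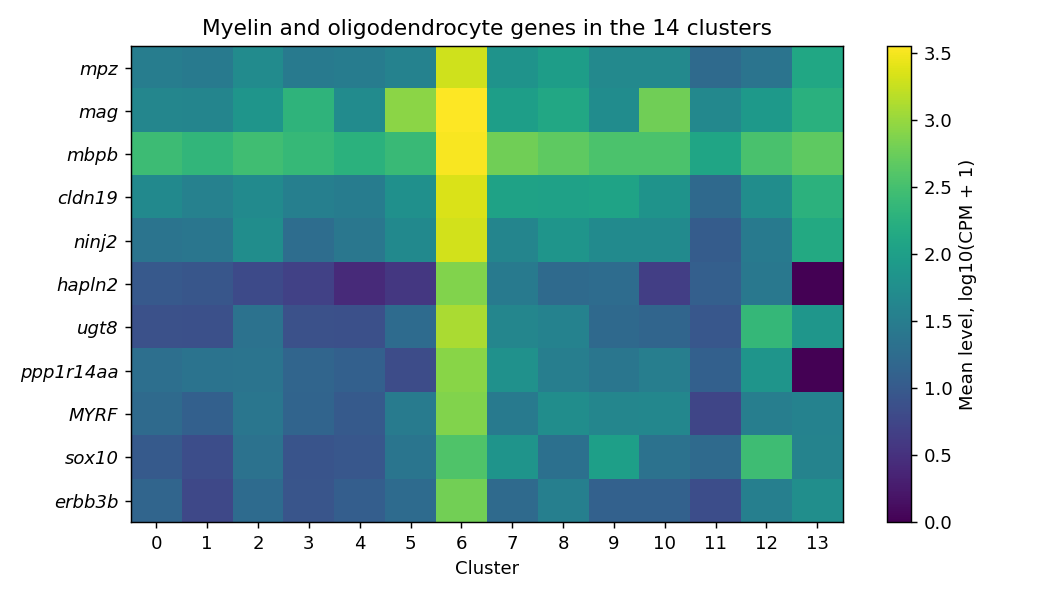
Mean level of myelin and oligodendrocyte genes (rows) in the 14 clusters (columns), as log10(CPM + 1) over the nuclei of both lineages. The column of cluster 6 is the brightest for the label markers mpz, cldn19, ugt8, hapln2, ninj2 and ppp1r14aa, each at 31.6 to 74.6 times the mean of the other clusters.

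All 6 label markers were raised. hapln2, which in mouse encodes a hyaluronan link protein of the nodes of Ranvier, stood at 753 CPM and 74.6 times the mean of the other clusters. ninj2, which encodes the adhesion protein ninjurin 2, stood at 2013 CPM and 45.1 times. mpz stood at 1946 CPM and 40.6 times, with 15.6 to 129 CPM in the other clusters. ugt8, the enzyme that makes galactosylceramide, stood at 1273 CPM and 34.5 times. ppp1r14aa, of a family of protein phosphatase inhibitors, stood at 843 CPM and 33.8 times. cldn19, a claudin found in mouse Schwann cells, stood at 2208 CPM and 31.6 times.

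Of the 20 genes with a symbol that led the cluster by this ratio at 50 CPM or more, the lowest stood at 31.1 times. Several more of them serve myelin. gjb1a, the connexin of gap junctions in myelinating glia, stood at 355 CPM and 49.7 times, and plp1b, a proteolipid protein, at 238 CPM and 41.2 times. The fatty acid elongases elovl7a and elovl1b stood at 42.6 and 37.4 times. The neuregulin receptor erbb3b stood at 34.8 times, the same as csrp1b, a LIM domain protein, and the complement inhibitor cd59 at 32.1 times. timd4, known in mammals as a phosphatidylserine receptor of macrophages, stood at 91.9 CPM and 61.1 times. Of 5 detected microglial genes, p2ry12 and irf8 were raised, at 13.7 and 2.91 CPM, with p2ry12 at 11.4 CPM or less in the other clusters. csf1ra, MPEG1 and spi1b were at 0, and the summed microglial list was 122 CPM against 939 CPM in cluster 7. TMED6, of a family of cargo receptors of the secretory pathway, stood at 55.1 times. cart4, of a family of neuropeptide precursors, stood at 38.2 times and is described with the genes called lower. The rest of the 20 were zgc:162331, syngr2b, FAM167B and sb:cb470.

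The 2 most abundant oligodendrocyte genes of the cluster, chosen here after their values were seen, were mag at 3554 CPM and mbpb at 3266 CPM. mag encodes a myelin glycoprotein that faces the axon, and mbpb encodes myelin basic protein. MYRF, the myelin regulatory factor, stood at 754 CPM and 28.8 times. sox10 stood at 367 CPM, with 279 CPM in cluster 12. Of 7 detected genes of oligodendrocyte precursors, 4 were raised (sox10, ascl1a, GPR17 and olig2), and the last 3 of these at no more than 10.7 CPM. pdgfra, the growth factor receptor that marks precursors, stood at 6.30 CPM against 292 CPM in cluster 12, GPR17 at 4.54 CPM and olig2 at 10.7 CPM. The precursor list summed to 470 CPM in cluster 6, of which sox10 gave 367 CPM, and to 2147 CPM in cluster 12. The Schwann cell list had 8 members detected and 4 raised (mpz, sox10, PMP22 and pmp22a). PMP22 stood at 63.8 CPM and the Schwann cell regulator egr2b, not raised, at 2.29 CPM. The list summed to 3368 CPM in cluster 6, of which mpz gave 1946 CPM. The highest sum elsewhere was 2380 CPM, in cluster 9.

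Markers of other cell types were present at lower levels than in the clusters that hold those cells. The 18 detected neuronal markers summed to 3953 CPM, and none was raised. Other clusters ranged from 3503 to 21632 CPM for the same list. Radial glia genes summed to 4698 CPM against 30211 CPM in cluster 9, and 3 of 14 were raised. Endothelial genes summed to 60.5 CPM, fibroblast and meningeal genes to 39.0 CPM, epithelial genes to 224 CPM and erythrocyte genes to 1327 CPM.

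Genes of the myelin sheath were among those called higher in BaP-lineage nuclei of cluster 6. The 6 label markers had a log2 fold change above 0 in the authors' deposited table, and 4 of them, mpz, cldn19, ugt8 and ninj2, passed its adjusted p of 0.05. In all, 66 genes were called higher in the BaP lineage, 0.271% of the 24365 in the authors' deposited table, and 15 were called lower, 0.0616%. Of the detected genes these were 0.454% and 0.103%, so a short list with no called gene lies near these shares. Only genes with enough counts could pass, and over the 2174 genes with at least 30 UMIs these shares were 3.04% and 0.69%. An unadjusted p under 0.05 was listed for 745 genes. Of the genes called higher, 51 have a symbol and 15 only an identifier, and of those called lower 12 have a symbol.

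**Figure D2:**
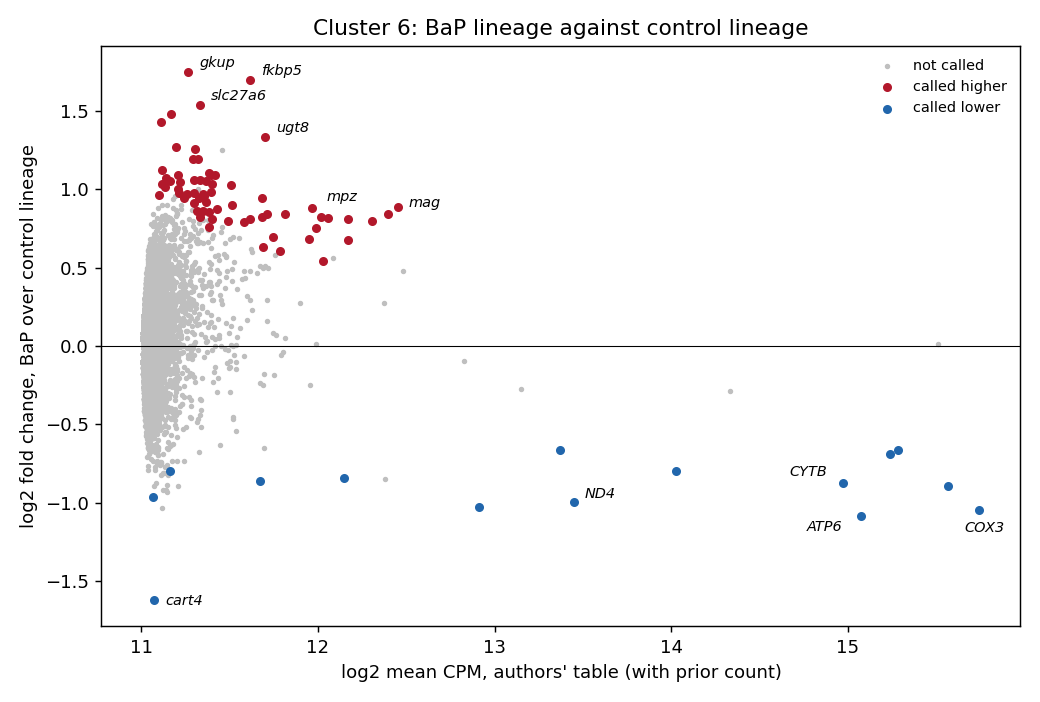
Log2 fold change of BaP over control lineage (vertical axis) against log2 mean CPM (horizontal axis) for detected genes of cluster 6, both from the authors' deposited table. Red points are the 66 genes called higher, blue points the 15 called lower and grey points the rest.

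Fold changes in the table appear to be damped by a prior count, which no source states. If so, a gene with few counts has a larger change than the table gives it. Among the 66 genes called higher they ran from 0.54 to 1.75 on the log2 scale in the authors' deposited table, with a median of 0.95. With the prior count taken out, 65 of them had enough counts in both lineages for a fold, and these folds ran from 1.49 to 9.48 with a median of 2.37. The remaining gene was at 0 in the control lineage.

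Proteins of the sheath come first. mpz stood at 1182 CPM (993 to 1397) in control-lineage nuclei and at 2282 CPM (2104 to 2472) in BaP-lineage nuclei. The authors' deposited table gives it a log2 fold change of 0.88 with an adjusted p of 2.9e-05. cldn19 stood at 1399 CPM (1192 to 1631) against 2566 CPM (2376 to 2767), a log2 fold change of 0.82 in the authors' deposited table (adjusted p 0.00015). For both genes the 2 counting intervals lie apart, with the BaP lineage above.

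ninj2 stood at 1322 CPM (1121 to 1548) against 2319 CPM (2138 to 2510), with 0.75 and an adjusted p of 0.00079 per the authors' deposited table. mag stood at 2185 CPM (1925 to 2471) against 4158 CPM (3915 to 4412), with 0.89 and an adjusted p of 0.000375 per the authors' deposited table. hapln2 stood at 322 CPM (227 to 443) against 944 CPM (830 to 1068). Its log2 fold change of 1.25 in the authors' deposited table was larger than that of mag, but its adjusted p was 0.0873. ppp1r14aa stood at 555 CPM (428 to 708) against 970 CPM (854 to 1096), with 0.68 and an adjusted p of 0.51 per the authors' deposited table. These last 2 markers were thus not called. Their counting intervals lie apart too, but such intervals hold no spread between nuclei or fish. How many of all genes have intervals that lie apart was not counted, so this does not set the markers apart.

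The myelin basic protein gene mbpb was not called. It stood at 2836 CPM in control-lineage and 3456 CPM in BaP-lineage nuclei, with a log2 fold change of 0.27 and an adjusted p of 1 per the authors' deposited table. The proteolipid gene plp1b stood at 168 against 268 CPM with an adjusted p of 1 per that same authors' deposited table. Reads of duplicated fish genes such as plp1a and plp1b, or qki2 and qkia, may be split between the copies by the counting, which is not described in the sources used here.

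A list of 54 symbols of myelin proteins matched 36 genes of the table, of which 30 were detected. Of these, 4 were called higher (mag, cldn19, ninj2, mpz) and none lower in the authors' deposited table. This list is not limited to compact myelin, since it holds mag, which faces the axon, and hapln2 of the nodes. Its members mbpb and plp1b were not called. The median log2 fold change of the 30 in the authors' deposited table was 0.18, and 23 were above 0. So were 8588 of all 14529 detected genes and 1421 of the 2174 with at least 30 UMIs. With mitochondrially encoded genes left out of the totals, the list median was 0.08, against 0.02 both over all detected genes and over those with at least 30 UMIs. With all genes in the totals, the median was 0.04 for all detected genes and 0.15 for those with at least 30 UMIs, both in the authors' deposited table. With prior counts taken out, the median over the 19 members with enough counts was 0.67 on the log2 scale against 0.27 over genes with at least 30 UMIs. The oligodendrocyte list shares most of its abundant members with this one. It had 5 of 21 detected members called higher in the authors' deposited table (the same 4 and ugt8), with a median of 0.27 and 20 above 0.

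**Figure D3:**
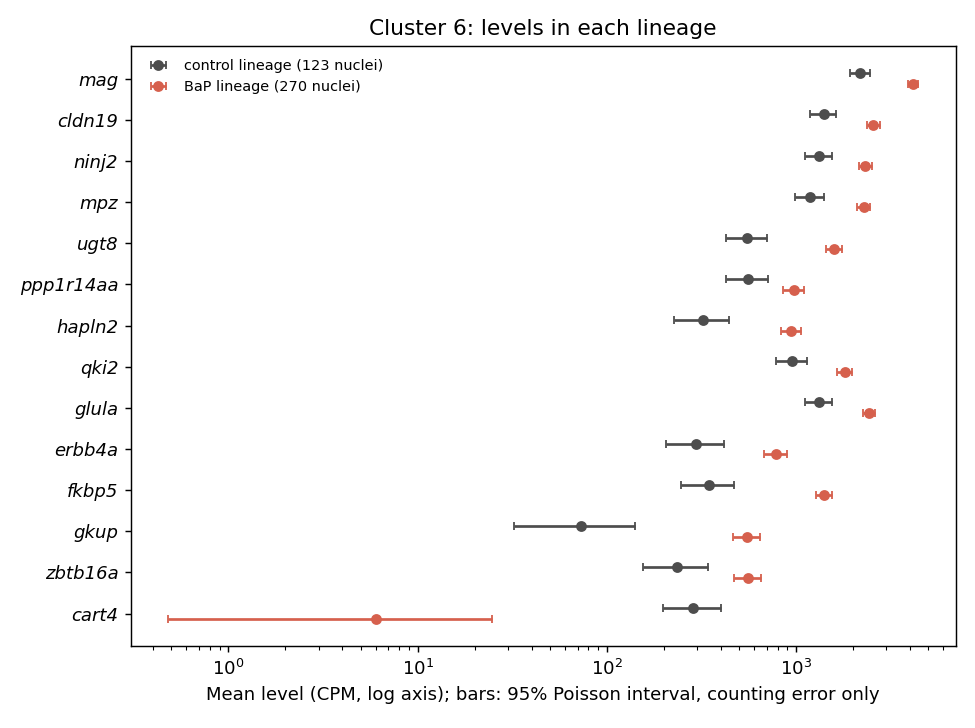
Mean level in CPM (log axis) of named genes in the control-lineage and BaP-lineage nuclei of cluster 6; bars are 95% Poisson intervals and cover counting error only. The point of the BaP lineage lies to the right for mpz (1182 against 2282 CPM), ugt8 (553 against 1591) and fkbp5 (345 against 1407), and to the left for cart4 (287 against 6.01).

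Among genes of myelin lipids, only ugt8 was called. It stood at 553 CPM (426 to 705) in control-lineage nuclei and at 1591 CPM (1443 to 1751) in BaP-lineage nuclei, with a log2 fold change of 1.33 and an adjusted p of 5.5e-06 per the authors' deposited table. The fold without the prior count was 2.88 (2.21 to 3.81). The other 28 detected members of the galactolipid and sphingolipid list were not called, and the list median was 0.04 in the authors' deposited table. fa2h, which hydroxylates the fatty acids of myelin galactolipids, stood at 204 against 212 CPM, and elovl1b at 319 against 467 CPM. None of 22 detected genes of cholesterol synthesis and transport was called in the authors' deposited table, where their median was 0.16.

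Outside these lists, slc27a6, a fatty acid transporter, stood at 149 CPM (87.7 to 238) against 680 CPM (584 to 788). The authors' deposited table gives it a log2 fold change of 1.54 with an adjusted p of 4e-05. A few more of the genes called higher work on lipids or surface sugars, and they were picked out after their values were seen. They are atp8a1, a phospholipid flippase (495 against 1037 CPM), SLC44A1, a choline transporter (277 against 713 CPM), and b3gat1a, an enzyme that makes the HNK-1 carbohydrate (756 against 1437 CPM). qki2 and qkia encode the quaking RNA-binding proteins, which in mouse are needed for myelination. They stood at 948 against 1805 CPM and 372 against 720 CPM, with adjusted p of 0.00072 and 0.0426 in the authors' deposited table, and were picked in the same way. Neither was highest in cluster 6. Over both lineages, qki2 stood at 1543 CPM in cluster 6 and 1614 CPM in cluster 9. qkia stood at 613 CPM in cluster 6 and 1533 CPM in cluster 5.

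Regulators of the oligodendrocyte lineage were not called. None of the 42 detected members of that list passed in the authors' deposited table, and their median was 0.04 there. Of all detected genes 0.454% were called higher, so none among 42 is near that share and does not set these genes apart. MYRF came nearest, at 467 against 881 CPM, with a log2 fold change of 0.76 and an adjusted p of 0.0647 per the authors' deposited table. sox10 stood at 319 against 389 CPM and nkx6.2, a homeodomain factor of oligodendrocytes, at 130 against 296 CPM. Just inside the threshold lay qkia and fam219aa (0.0393), and just outside it spock3 (0.0522) and schip1 (0.0551), as adjusted p in the authors' deposited table.

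Among 48 detected receptors and signalling genes, erbb4a, a neuregulin receptor, was called higher. It stood at 297 CPM (207 to 414) against 780 CPM (677 to 894), with 1.09 and an adjusted p of 0.0014 per the authors' deposited table. ERBB4, another entry for this receptor with a like level in the cluster, was not called. It stood at 564 against 666 CPM, with 0.20 in the authors' deposited table. erbb4a was not typical of the cluster, at 0.986 times the mean of the others, whereas erbb3b, at 34.8 times, was not called (454 against 710 CPM, adjusted p 0.66 in the authors' deposited table). Of 79 detected genes of axon-glia adhesion, opcml and TENM3 were called higher and none lower, and the list median was -0.03 in the authors' deposited table. For the lists of this paragraph, the shares called higher were 0.454% over all detected genes and 3.04% over those with at least 30 UMIs. opcml, a cell adhesion molecule of the IgLON family, stood at 666 against 1268 CPM. TENM3, a teneurin, stood at 312 against 707 CPM. The cytoskeletal actin gene actb2 was the only one of 32 detected genes of cytoskeleton and process growth to be called, at 1297 against 2158 CPM (0.68, adjusted p 0.0084 in the authors' deposited table). None of 54 detected ion channel, transporter and glutamate receptor genes was called in the authors' deposited table, with a median of 0.04. glula, glutamine synthetase, which is on the radial glia list, was called higher at 1319 against 2432 CPM (0.82, adjusted p 0.00096 in the authors' deposited table).

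The smallest adjusted p among genes called higher belonged to fkbp5, a co-chaperone of the glucocorticoid receptor whose own gene responds to corticosteroids. It stood at 345 CPM (246 to 469) in control-lineage nuclei, on 40.1 UMIs, and at 1407 CPM (1268 to 1558) in BaP-lineage nuclei, on 371 UMIs. The authors' deposited table gives a log2 fold change of 1.70 and an adjusted p of 2.5e-11, and the fold without the prior count was 4.08 (2.94 to 5.81). zbtb16a, a zinc finger factor also induced by corticosteroids, stood at 234 against 556 CPM (0.91, adjusted p 0.0302 in the authors' deposited table). Of all detected genes 0.454% were called higher, and of those with at least 30 UMIs 3.04%. fkbp5 and zbtb16a were the 2 of 33 detected members of the corticosteroid list that were called. The list median was 0.14 in the authors' deposited table. It was 0.04 over all detected genes and 0.15 over those with at least 30 UMIs. TSC22D3, another such target, stood at 228 against 496 CPM with an adjusted p of 0.0831 per the authors' deposited table, and mt2, a metallothionein, at 1206 against 790 CPM with an adjusted p of 1.

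The highest log2 fold change belonged to gkup, glucuronokinase, which phosphorylates glucuronic acid. It stood at 72.7 CPM (32.2 to 141) against 549 CPM (464 to 647), with 1.75 and an adjusted p of 3.3e-07 per the authors' deposited table. fgf11a, of the intracellular fibroblast growth factor family, was worked out at 0 in the control lineage and at 216 CPM in the BaP lineage. With the control lineage set to a floor of 3 counts, that is 8.36-fold higher. The lower 95% counting limit of the ratio between lineages was 6.58. veph1 stood at 34.8 against 330 CPM, on 4.04 UMIs in the control lineage, and fam53b at 31.0 against 220 CPM on 3.60 UMIs. Folds this large rest on few control-lineage molecules. The other genes with a symbol among the 12 highest folds or 12 smallest adjusted p were KIAA1217 (80.8 against 378 CPM), ccdc85al (176 against 601), ubl3a (175 against 566), PTPRE (320 against 829) and skia (281 against 753). ubl3a encodes a ubiquitin-like protein, PTPRE a tyrosine phosphatase and skia a co-repressor of TGF-beta signalling. ENSORLG00000029209 and ENSORLG00000007557, which have no symbol in the table, stood at 18.4 and 23.2 times the mean of the other clusters and at 2111 against 3890 CPM and 441 against 1034 CPM.

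By levels over both lineages, most of the genes called higher were genes typical of cluster 6. BaP-lineage nuclei weigh most in those levels, which adds to that number by construction. Of the 66, 56 stood at 2 times or more the mean of the other clusters by levels over both lineages. By the same levels, 50 were higher in cluster 6 than in any other cluster. Over all 2174 genes with at least 30 UMIs these numbers were 497 and 505. By control-lineage levels alone, 21 of the genes called higher stood at 2 to 5 times, 4 at 5 to 10 times and 12 at 10 times or more. By those levels, 439 of the 2174 genes stood at 2 times or more. How many were higher than in any other cluster was not worked out from control-lineage levels. The next shares use levels over both lineages again. Among the 104 genes with at least 30 UMIs at 10 times or more, 16 were called higher in the authors' deposited table, 15.4%. The share was 9.43% of 297 genes at 2 to 5 times, and 0 of 366 genes at less than 0.5 times. The median log2 fold without prior counts ran in the same order, from -0.18 below 0.5 times to 0.80 at 10 times or more.

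**Figure D4:**
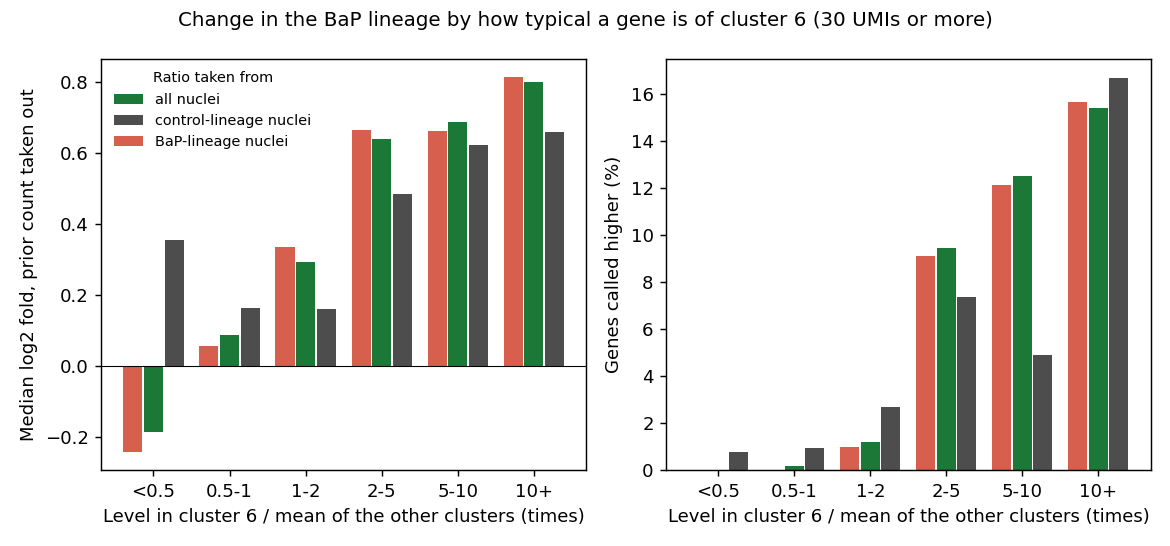
Left, median log2 fold of BaP over control lineage with prior counts taken out; right, the percentage of genes called higher; both by the ratio of a gene's level in cluster 6 to the mean of the other clusters, for genes with at least 30 UMIs. Colours give the nuclei from which the ratio was taken (all, control lineage alone, BaP lineage alone); at 10 times or more the medians are 0.80, 0.66 and 0.81.

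BaP-lineage nuclei make up most of the cluster, so a gene higher in them also has a higher ratio by construction. With the ratio taken from control-lineage levels alone, an alternative added after the data were seen, 12 of 72 genes at 10 times or more were called higher in the authors' deposited table (16.7%) and the median was 0.66. At the low end the order then did not hold, since genes below 0.5 times had a median of 0.35, above the 0.16 of genes at 0.5 to 2 times. Nor did the share called higher rise evenly, at 7.37% of 285 genes at 2 to 5 times and 4.88% of 82 at 5 to 10 times. Counts also set what can be called. The shares by counts that follow again use the ratio over both lineages, so the same construction affects them. They leave out mitochondrially encoded genes. Within 100 to 300 UMIs, 17.0% of 153 genes at 2 times or more were called higher in the authors' deposited table against 2.58% of 271 below 2 times. At 300 UMIs or more these shares were 44.2% of 52 genes and 4.17% of 48. Genes are not independent replicates, and these shares describe 1 pair of lineages.

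The summed levels of most lists of other cell types differed between lineages too, but among the genes summed here only glula was called. Few molecules lie behind some sums, since none of 8 detected endothelial and 2 of 5 microglial genes had at least 10 UMIs. The 18 neuronal markers summed to 4863 CPM in control-lineage and 3551 CPM in BaP-lineage nuclei of cluster 6. Of these markers, 12 had a log2 fold change below 0 in the authors' deposited table, with a median of -0.11 (-0.56 without prior counts), and none was called. snap25a, a synaptic vesicle fusion protein, stood at 1725 against 1054 CPM and elavl4, a neuronal RNA-binding protein, at 512 against 216 CPM. Microglial genes summed to 192 against 90.7 CPM, endothelial genes to 82.1 against 51.3 CPM, epithelial genes to 218 against 227 CPM and erythrocyte genes to 986 against 1478 CPM. Radial glia genes summed to 3672 against 5151 CPM, of which glula gave 1319 and 2432 CPM. The part of these RNAs in the difference between lineages was not tested.

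Of the 15 genes called lower, 10 have the symbol of a gene encoded by the mitochondrial genome. They carry the core subunits of the respiratory chain, and their RNA is made in mitochondria, outside the nucleus. COX3 stood at 82485 CPM in control-lineage and 39839 CPM in BaP-lineage nuclei, with a log2 fold change of -1.05 and an adjusted p of 9e-10 per the authors' deposited table. ATP6 (-1.09), ND2 (-1.03), ND4 (-0.99), COX2 (-0.89), CYTB (-0.87), ND5 (-0.86), ND3 (-0.84), COX1 (-0.66) and ND1 (-0.66) were called lower in the same authors' deposited table. ATP8, ND4L and ND6, at 309 CPM or less in the control lineage, were not called, at -0.81, -0.64 and -0.33 on the log2 scale in the authors' deposited table. The 13 genes together made up 28.9% of the worked-out level in the control lineage and 16.3% in the BaP lineage.

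**Figure D5:**
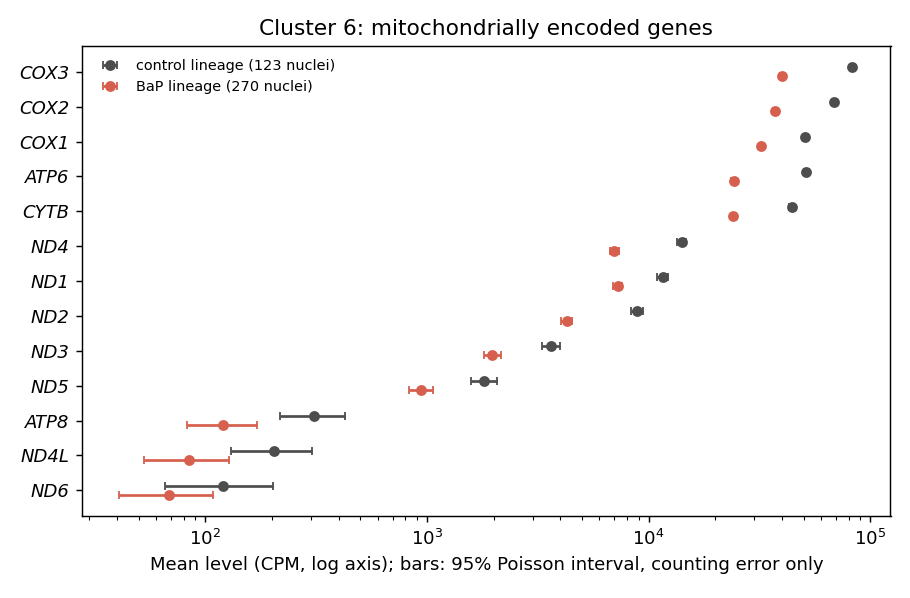
Mean level in CPM (log axis) of the 13 mitochondrially encoded genes in both lineages of cluster 6; bars are 95% Poisson intervals and cover counting error only. Each point of the BaP lineage lies to the left of that of the control lineage, as for COX3 (82485 against 39839 CPM).

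On a CPM scale, a smaller share of the most abundant RNAs goes with a higher CPM of everything else. Whether their amount fell or that of other RNAs rose was not tested. With the mitochondrially encoded genes left out of the totals, log2 fold changes shifted by -0.24, and the log2 folds without prior counts of the 65 genes called higher that have one stayed above 0, the lowest at 0.34. For mpz the value without prior counts went from 0.95 to 0.71, for ugt8 from 1.53 to 1.29 and for fkbp5 from 2.03 to 1.79. The median of genes at 10 times or more went from 0.80 to 0.56. Of 81 detected genes of the respiratory chain encoded in the nucleus, none was called in the authors' deposited table. Of all detected genes 0.103% were called lower, so none among 81 is near that share. Only 50 of the 81 had at least 10 UMIs. The median of these nuclear genes was -0.06 in the authors' deposited table, and 49 were below 0. Without prior counts their median was -0.40 over 51 members with enough counts. The same value was -0.01 over all detected genes and 0.27 over those with at least 30 UMIs. With mitochondrially encoded genes also out of the totals, it was -0.63, against -0.25 over all detected genes and 0.04 over those with at least 30 UMIs.

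The remaining 5 genes called lower were cart4, RNaseP-nuc.1 and 3 without a symbol. cart4 stood at 287 CPM (198 to 402) in control-lineage nuclei, on 33.3 UMIs, and at 6.01 CPM (0.482 to 24.9) in BaP-lineage nuclei, on 1.58 UMIs. The authors' deposited table gives a log2 fold change of -1.62 and an adjusted p of 1.1e-05, and the interval of the ratio without prior counts ran from 0.0016 to 0.0935. The gene was at 21.8 CPM or less in every other cluster, and how many of the 3 fish carried it is not known. RNaseP-nuc.1, the RNA of nuclear RNase P, stood at 377 against 162 CPM (-0.80, adjusted p 0.035 in the authors' deposited table). ENSORLG00000021749 and ENSORLG00000021751 stood at 20900 against 11986 CPM and 49948 against 30940 CPM, levels within the range of the mitochondrially encoded genes. Outside cluster 6 both were highest in cluster 7, as were the mitochondrially encoded genes called lower. Whether the mitochondrial genome encodes them is not known here. They were not counted in the share of those genes, and they stayed in the totals that leave those genes out.

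The values in other clusters come from the same 6 fish, so they are set side by side and are no independent evidence. mpz, cldn19, ugt8, ninj2, hapln2, ppp1r14aa, mag and MYRF were called in none of the other 13 authors' deposited tables. mpz ran from -1.02 to 0.48 there and ugt8 from -0.64 to 0.87 on the log2 scale, at levels of at most 129 and 229 CPM. Outside cluster 6, hapln2, MYRF and ppp1r14aa were at 28.3, 53.2 and 69.8 CPM or less. No gene of any kind was called in clusters 12 and 13, and only 1 in cluster 11. The absence of calls elsewhere therefore does not set these genes apart. fkbp5 was called higher in 5 others of the authors' deposited tables and gkup in 3, with gkup at 1.56, 1.21 and 1.43 in clusters 5, 8 and 9. zbtb16a was called higher in cluster 9, and cart4 lower in cluster 1 (-1.14), in the authors' deposited tables. glula was called lower in clusters 0 (-0.58) and 2 (-0.73), and mbpb lower in cluster 2 (-0.90), in the authors' deposited tables. COX3 was called lower in 9 others of the authors' deposited tables. Whether any of these fold changes differs between clusters was not tested.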

How the data were processed

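Whole frozen brains of 6 F1 males gave 6 droplet-based 3′ single-nucleus libraries, per the labels' protocols, and all belong to 1 sequencing batch. Cell Ranger is named without a version, per the submitters' processing notes. Libraries were aligned to a medaka assembly, aggregated and compared within clusters, per the series design text. Clustering, filters, doublets, free RNA and the testing tool were not given in the sources used here.

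The authors deposited 14 tables, each holding for 24365 genes a log2 fold change, a log2 mean CPM, a p-value and an adjusted p-value, per the file headers. A symbol is given for 14025 of them. The other 10340 carry an identifier alone, and the RefSeq table at hand (assembly ASM223467v1, another build) names none of these. The fold change was taken as BaP over control lineage, since the names of the tables code control as 0 and treated as 1. Nuclei and levels per lineage were worked out from the authors' deposited log2 values and p-values, assuming prior counts of 2 (mean level) and 0.125 (fold change), which no source states. In a simulated table of 24365 genes modelled on cluster 6, 123 and 270 nuclei were recovered, as were the directions of 200 of 200 changed genes. The median error over 1998 genes was 0.011 on the log2 scale (0.13 with the prior count left in). It was simulated under those assumptions and therefore tests nothing but the arithmetic. Worked-out levels of cluster 6 sum to 1.12 times the total to which CPM should sum, and their sum was 1.07 times as high in the control as in the BaP lineage.

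A gene was called at an authors' adjusted p under 0.05; no test was added. A gene was detected above the floor of its table and raised at 2 times the mean of the other clusters or more. Folds without the prior count needed 3 counts per lineage. Members and lists were chosen with earlier results of these data known. Named genes were called members of lists, the 12 highest folds and 12 smallest adjusted p among genes called higher, all called lower with a symbol, the 6 label markers, fkbp5 and the 20 leading genes with a symbol at 50 CPM or more. Other genes were named after their values were seen. LRP1B, matched wrongly, was dropped from the cholesterol list after values were seen. Alternatives varied the threshold, the fold, the adjustment, the filter, the reference of the ratio, the prior count and the totals. Python 3.11, numpy 2.4.6, pandas 2.3.3, scipy 1.17.1 and matplotlib 3.10.9 were used.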

Additional observations from a re-analysis of the deposited data

How the results depend on the processing

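The 66 genes called higher became 26 when folds had to reach 1 on the log2 scale, 36 under Benjamini-Yekutieli adjustment and 114 when p was adjusted over genes with at least 10 counts. The 15 called lower became 4, 10 and 35 under the same settings, and 5 without the mitochondrially encoded genes. Counts stayed within 1.5 times at adjusted p thresholds of 0.1 (84 and 22) and 0.01 (45 and 11), and over detected genes (77 and 20). Of the oligodendrocyte list, 16 to 19 members were raised under each reference tried. With prior counts taken out, list medians (log2) became 0.67 for myelin protein, 0.81 for oligodendrocyte, 0.50 for galactolipid and 0.74 for cholesterol genes. They became 0.21 for transcription, 0.33 for receptor, -0.14 for adhesion, 0.55 for corticosteroid and -0.56 for neuronal genes. For the first 4 lists these medians rest on only 19, 14, 10 and 5 members with enough counts. The same median was -0.01 over all detected genes and 0.27 over those with at least 30 UMIs. Over members with at least 10 counts the list medians were 0.39, 0.72, 0.32 and 0.37 for the first 4, 0.20 for receptor and 0.30 for corticosteroid genes. Over all detected genes with that many counts the median was 0.08. With totals that leave out mitochondrially encoded genes, the medians went to 0.08 for myelin protein, 0.04 for receptor and -0.08 for adhesion genes. On the same totals, the neuronal median became -0.23 and that of the mitochondrially encoded genes -1.08. Their share was 7.86% in the control and 4.25% in the BaP lineage with the prior count left in, which by its construction adds to every gene. Of the 16 genes called higher at 10 times or more, the count was 12 and 18 with ratios from 1 lineage and 14 from 100 UMIs upward. Taking prior counts out cannot change the direction of a gene, by its construction. Leaving mitochondrially encoded genes out of the totals moves every log2 fold without prior counts down by the same amount. Genes called lower could therefore only move further down, and no gene called higher changed direction. No paired analysis was possible because the tables hold no values per fish; leaving out a fish was not run for the same reason. Control-lineage values rest on 123 nuclei against 270.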

Other observations

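Several gene groups of general interest were not called in cluster 6, or nearly so. Among 28 detected clock genes, ciarta, a circadian repressor, was called higher, at 39.1 against 215 CPM on 4.54 UMIs in the control lineage (1.03, adjusted p 0.0343 in the authors' deposited table), and the list median was 0.06. No gene of the other lists in this paragraph was called in the authors' deposited table. The list of the aryl hydrocarbon receptor, to which BaP binds, and of genes of the response to foreign chemicals had 8 detected members with a median of 0.05. The receptor's known targets cyp1a, cyp1b1, cyp1c2 and nqo1 were not detected. TIPARP, another target, stood at 42.7 against 45.3 CPM and the receptor gene ahr1b stood at 9.12 against 15.7 CPM. The median was 0.06 for 30 genes of DNA methylation and chromatin, 0.05 for 36 chaperones and 0.02 for 73 ribosomal proteins, again in the authors' deposited table. The maintenance DNA methyltransferase dnmt1 stood at 7.54 against 14.1 CPM and the constitutive chaperone hspa8 at 239 against 259 CPM. At these levels, changes below the counting error could not be detected.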
